A study of Mus musculus with 32 samples.

Results

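Collagens are the proteins of the extracellular matrix that carry a triple helix of chains. The collagen genes of the array were taken as all probes whose gene name reads Col, a number, a and a number. They came to 41 genes and 61 probes, out of 55681 probes in all. Of these genes, 30 passed the filter on dim and missing spots and were tested among 26193 genes. Of those 26193 names 17400 are official gene symbols, and the others are names given by the array. Shares of all genes below are over all tested names.

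Hearts of C57BL/6 mice were compared after social stress, used by the study as a model of posttraumatic stress disorder. Stressed mice spent 6 hours a day in a mesh box in the cage of an aggressor mouse and were also placed with it for short attacks, and controls spent the time in such boxes in a cage with no aggressor. After 5 days of exposure hearts were taken following 1 day (T5R1) or 10 days of rest (T5R10), and after 10 days of exposure following 1 day (T10R1) or 42 days of rest (T10R42). Each of these 4 conditions had 4 stressed and 4 control mice, and each of the 32 hearts gave total RNA for its own 1-colour array. All mice were of that strain, and whole hearts hold many cell types, so the arrays mix them.

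In the heart, collagens are made mostly by fibroblasts. Fibrillar collagens (Col1a1, Col1a2, Col3a1 and their minor partners) form the cables that bear load, and type IV chains form the sheet under endothelium and around muscle cells. FACIT collagens sit on the surface of fibrils, and the remaining families form beaded filaments, networks, anchoring fibrils or membrane-bound proteins. Prolyl and lysyl hydroxylases and chaperones fold the chains, proteinases trim the ends of the fibrillar chains outside the cell, and lysyl oxidases cross-link them.

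Probes were grouped by these roles. Of 11 fibrillar genes 8 were tested, of 6 basement membrane genes 6, of 9 FACIT genes 6 and of 15 other genes 10. The 11 that were not tested comprised Col12a1, which was well above background on all 32 arrays but lacked a value on 5 because of outlier flags, and 10 dim genes. The dim ones, well above background on 0 to 4 of the 32 arrays, were Col2a1, Col11a1 and Col24a1 (fibrillar), Col9a3 and Col19a1 (FACIT), and Col6a4, Col10a1, Col13a1, Col17a1 and Col28a1 (other). Col11a1, a minor fibrillar chain, was above background on 2 stressed arrays each of T5R1 and T10R1 and on no control array, and was not tested. Col6a3 stands on the array under a transcript identifier and so is no member, but it is given beside Col6a1 and Col6a2.

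Values below are log2 signal over the 75th percentile of the array, called the level, and changes are stressed minus control with their standard error (SE, n = 4 arrays per arm unless said). A gene was called when its limma adjusted p was below 0.05 over all genes, and rose or fell is written only of called genes. Within a group arrays correlated at 0.982 to 0.994, and the 75th percentile signal ran from 237 to 499. Each condition had a slide of its own, so condition and slide cannot be told apart, and the arms lay in different array columns of that slide, so arm and column cannot be told apart either. Both slide rows held both arms. All 8 cardiomyocyte markers passed the filter. The scanner software marked 3 arrays (T5R10 stressed replicates 1 and 2 and control replicate 4). In T5R1 the median change over all genes was -0.12, and in the other conditions it lay between -0.03 and 0.00.

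Promoters of 4 members are shown. Col1a2 and Col3a1 were among the 11 members that rose in both T5R1 and T10R1, and Col1a1, another of them, had no promoter entry. Col4a1 and Col4a2 lie head to head on chromosome 8, with annotated start sites 21 bases apart. The RefSeq windows (GRCm38.p6) run from 250 bases before the start site to 50 after it. Capitals mark a CCAAT box, a TATAAA or a GGGCGG, on either strand. Col1a2 lies at chr6:4505368-4505667 (+), Col3a1 at chr1:45311288-45311587 (+), Col4a1 at chr8:11312777-11313076 (-) and Col4a2 at chr8:11312555-11312854 (+).
Col1a2: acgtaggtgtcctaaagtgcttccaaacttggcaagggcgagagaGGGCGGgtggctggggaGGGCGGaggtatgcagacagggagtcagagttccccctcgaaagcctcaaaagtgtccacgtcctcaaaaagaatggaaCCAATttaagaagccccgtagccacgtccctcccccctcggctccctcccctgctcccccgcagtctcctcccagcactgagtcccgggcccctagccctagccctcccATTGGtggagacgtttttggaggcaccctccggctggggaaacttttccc
Col3a1: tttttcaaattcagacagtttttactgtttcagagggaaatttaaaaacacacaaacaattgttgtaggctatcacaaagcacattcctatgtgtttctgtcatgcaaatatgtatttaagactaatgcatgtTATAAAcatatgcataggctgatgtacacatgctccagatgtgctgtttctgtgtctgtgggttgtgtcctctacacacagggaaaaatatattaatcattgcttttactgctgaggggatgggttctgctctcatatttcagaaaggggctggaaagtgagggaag
Col4a1: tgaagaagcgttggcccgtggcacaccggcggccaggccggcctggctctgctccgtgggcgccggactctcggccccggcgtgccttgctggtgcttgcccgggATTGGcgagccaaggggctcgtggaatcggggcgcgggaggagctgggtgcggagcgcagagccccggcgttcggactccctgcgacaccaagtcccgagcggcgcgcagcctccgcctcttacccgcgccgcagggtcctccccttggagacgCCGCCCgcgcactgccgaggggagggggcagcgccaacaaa
Col4a2: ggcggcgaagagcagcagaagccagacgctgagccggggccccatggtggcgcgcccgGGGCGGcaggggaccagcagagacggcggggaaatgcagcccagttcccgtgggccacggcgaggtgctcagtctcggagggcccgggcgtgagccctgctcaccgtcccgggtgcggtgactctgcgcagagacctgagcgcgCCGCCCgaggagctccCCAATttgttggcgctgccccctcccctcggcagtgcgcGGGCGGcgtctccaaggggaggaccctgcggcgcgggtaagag
The windows of Col4a1 and Col4a2 share 78 bases. Among 36 promoters of the 33 members that had an entry, 13 held CCAAT (36.1%, against 37.4% of 32851 promoters), 5 held TATAAA (13.9%, against 13.6%) and 22 held GGGCGG (61.1%, against 35.7%). These matches describe letters and not binding. They are not all separate sites, since the GGGCGG of the Col4a1 window lies in the shared bases and is counted for Col4a2 too. The windows of Col6a2 also overlap each other.

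After 5 days of stress and 1 day of rest, 7 of 8 tested fibrillar genes, 4 of 6 type IV, 2 of 6 FACIT and 5 of 10 other collagen genes rose. Of the 30 genes tested 18 rose, against 5.18% of all genes, and 1 fell, against 8.1%. In 17 genes every stressed heart lay above every control heart, against 6.77% of all genes, and in 1 gene below, against 15.9%. Measured changes were above 0 in 24 of the 30, against 33.6% of all genes. All 30 reached the filter in at least 1 control group, so none was tested only because stressed hearts were bright. The median change was 0.85 over the members and -0.12 over all genes. By class the medians were 1.65 for fibrillar, 0.61 for basement membrane, 0.36 for FACIT and 0.85 for other collagens, with no test between classes. In whole hearts, a change in the number of cells and a change in RNA per cell cannot be told apart.

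Col3a1 and Col1a1 had the largest changes. Col3a1, the chain of type III collagen, which forms fine fibrils (probe at chr1:45405589-45405648 (+), mm9), stood at 7.15, 6.18, 5.55 and 5.69 in stressed hearts, against 3.57, 3.03, 3.29 and 2.88 in controls. No stressed heart overlapped the controls, and replicate 1 was the highest. The change was 2.95 ± 0.32, a fold of 7.72 (adjusted p = 1.39e-06).

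Col1a1, the main chain of type I collagen (probe at chr11:94813115-94813174 (+), mm9), stood at 6.81, 5.72, 4.86 and 5.00 in stressed and 3.47, 2.93, 3.07 and 2.78 in control hearts. Its change was 2.53 ± 0.30, or 5.79-fold (adjusted p = 3.73e-06). Col1a2, its partner chain (probe at chr6:4490619-4490678 (+), mm9), stood at 7.90, 6.93, 6.40 and 6.50, against 5.37, 5.24, 5.28 and 5.14. The groups of both genes lay apart, and Col1a2 changed by 1.67 ± 0.22 (adjusted p = 1.47e-05).

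Type V chains, which help set fibril width, changed in the same direction. Col5a1 (probe at chr2:27892892-27892951 (+), mm9) stood at 3.61, 2.55, 1.97 and 2.05 in stressed and 1.03, 0.66, 0.73 and 0.63 in control hearts, a change of 1.78 ± 0.25. Col5a2 (probe at chr1:45431204-45431263 (-), mm9) stood at 0.57, -0.90, -1.27 and -1.22, against -2.29, -2.42, -2.56 and -2.10, a change of 1.64 ± 0.31. Both sets of hearts lay apart, with replicate 1 the highest in stress. Col5a3 (0.92 ± 0.27, adjusted p = 0.0258) and the minor fibrillar chain Col27a1 (0.86 ± 0.20) were also called, while Col11a2, best known from cartilage, fell by 0.68 on the log2 scale (adjusted p = 0.00825). Of 6 tested cartilage markers Chad (-0.85 ± 0.20) and Cnmd (-0.96 ± 0.21) also fell, against 8.1% of all genes. The 6 ran from -0.96 to 0.41 with a median of -0.03, so they did not fall together. Matn1 and Matn3 were well above background on fewer than 3 of the 32 arrays. The part of cartilage markers in the Col11a2 result was not tested. Col5a3 lost its call in 7 of 23 alternatives.

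Of the basement membrane chains, 4 rose. Col4a1 (probe at chr8:11199009-11199068 (-), mm9) stood at 4.13, 3.67, 3.45 and 3.52 in stressed and 2.64, 2.74, 2.85 and 2.71 in control hearts (change 0.96 ± 0.14). Col4a2 (probe at chr8:11448840-11448899 (+)), with which it forms the common type IV network, stood at 4.52, 4.10, 3.92 and 4.05, against 3.43, 3.24, 3.35 and 3.23 (change 0.84 ± 0.11). Both pairs of groups lay apart. Col4a3, well above background on 2 of 4 control arrays, changed by 0.77 ± 0.19 and Col4a5 by 0.45 ± 0.10, and neither Col4a4 (0.10 ± 0.11) nor Col4a6 (-0.17 ± 0.14) was called.

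Among FACIT genes Col16a1 and Col14a1 rose. Col16a1 (probe at chr4:129776333-129776392 (+), mm9) stood at 2.82, 2.41 and 2.59 in stressed replicates 2, 3 and 4 and 1.60, 1.72, 1.502 and 1.63 in controls, with the spot of stressed replicate 1 left out (change 0.99 ± 0.15). Col14a1, a binder of fibrils, changed by 1.02 ± 0.23 on its dimmer probe. Its brighter probe, missing on 27 arrays because of background flags, gave 1.74 ± 0.23 in a fit that left out only spots flagged themselves, and there Col12a1 was called too, at 2.03 ± 0.41 (adjusted p = 0.00159). The Col12a1 spots of replicates 1 and 3 in both arms were left out of the main fit. Stressed replicate 1 read 0.86, against -1.17, -2.02 and -1.28 in stressed replicates 2, 3 and 4.

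Col6a1 and Col6a2, chains of the beaded filament, rose, and Col6a6 (-0.31 ± 0.33) was not called. Col6a1 (probe at chr10:76171538-76171597 (-), mm9) stood at 5.05, 4.51, 4.16 and 4.39 in stressed and 3.42, 3.16, 3.18 and 3.11 in control hearts (change 1.31 ± 0.16), and Col6a2 (probe at chr10:76058931-76058990 (-)) at 2.85, 2.41, 2.00 and 2.23, against 1.30, 1.01, 0.88 and 0.88 (change 1.35 ± 0.16). In both the hearts lay apart. Col6a3, outside the rule, changed by 1.64 ± 0.22 (adjusted p = 1.47e-05).

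Col8a1, a network chain of vessel walls (probe at chr16:57624471-57624530 (-)), stood at 2.67, 1.34, 1.09 and 1.00, against -0.23, -0.60, -0.68 and -0.32 (change 1.98 ± 0.30). Col18a1, a basement membrane collagen that releases endostatin (probe at chr10:76514926-76514985 (-)), was counted among other collagens, since the basement membrane class here held type IV chains only. It stood at 2.01, 1.92, 1.79 and 1.44, against 1.17, 0.97, 0.80 and 0.75 (change 0.87 ± 0.15). The hearts lay apart for both genes. Col8a2 changed by 1.40 ± 0.47 (adjusted p = 0.047), and it was not called without stressed replicate 1 or 4 or without control replicate 2, 3 or 4. Its second probe differed by -0.17.

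Beside Col4a4 and Col4a6, 9 tested members were not called in T5R1. They were the FACIT genes Col9a1 (-0.32), Col9a2 (0.31), Col20a1 (-0.01) and Col22a1 (0.40), and among other collagens Col6a6, Col7a1, the anchoring fibril chain (0.07), Col15a1 (0.84), Col23a1 (-0.18) and Col25a1. Col25a1 was well above background on 3 stressed and no control arrays, and no fold is given, since its lower bound is under 1. For Col15a1 and Col25a1 the brightest probe, which stands for the gene, holds the glycine repeat of the triple helix. Glycine fills every 3rd residue there, so GG, the start of a glycine codon, recurs every 9 bases. A probe-long run of it was found in 2 of 61 collagen probes (3.28%) and in 6 of all 55681 probes (0.0108%). Both are shown because they stand for their genes in the fit, with the repeated GG in capitals.
Col15a1, chr4:47283786-47283845 (+), mm9: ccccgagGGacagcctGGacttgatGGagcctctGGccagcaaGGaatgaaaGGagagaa
Col25a1, chr3:130270497-130270556 (+), mm9: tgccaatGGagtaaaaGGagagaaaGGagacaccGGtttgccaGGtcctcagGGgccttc
Col15a1 has 2 further probes. In T5R1 they were well above background on all 4 stressed arrays and on 2 and 0 of the 4 control arrays. Their changes there, 1.69 and 1.87, thus rest on control values that were partly or wholly not well above background. When the mean of a gene's probes stood for it, Col15a1 was called in T5R1 at 1.47 ± 0.27 (limma adjusted p = 0.000645). The second Col25a1 probe that passed the filter was well above background on 1 of 4 arrays in each arm. The longest run that the tested probes of any 2 members share is 15 bases.

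**Figure D1:**
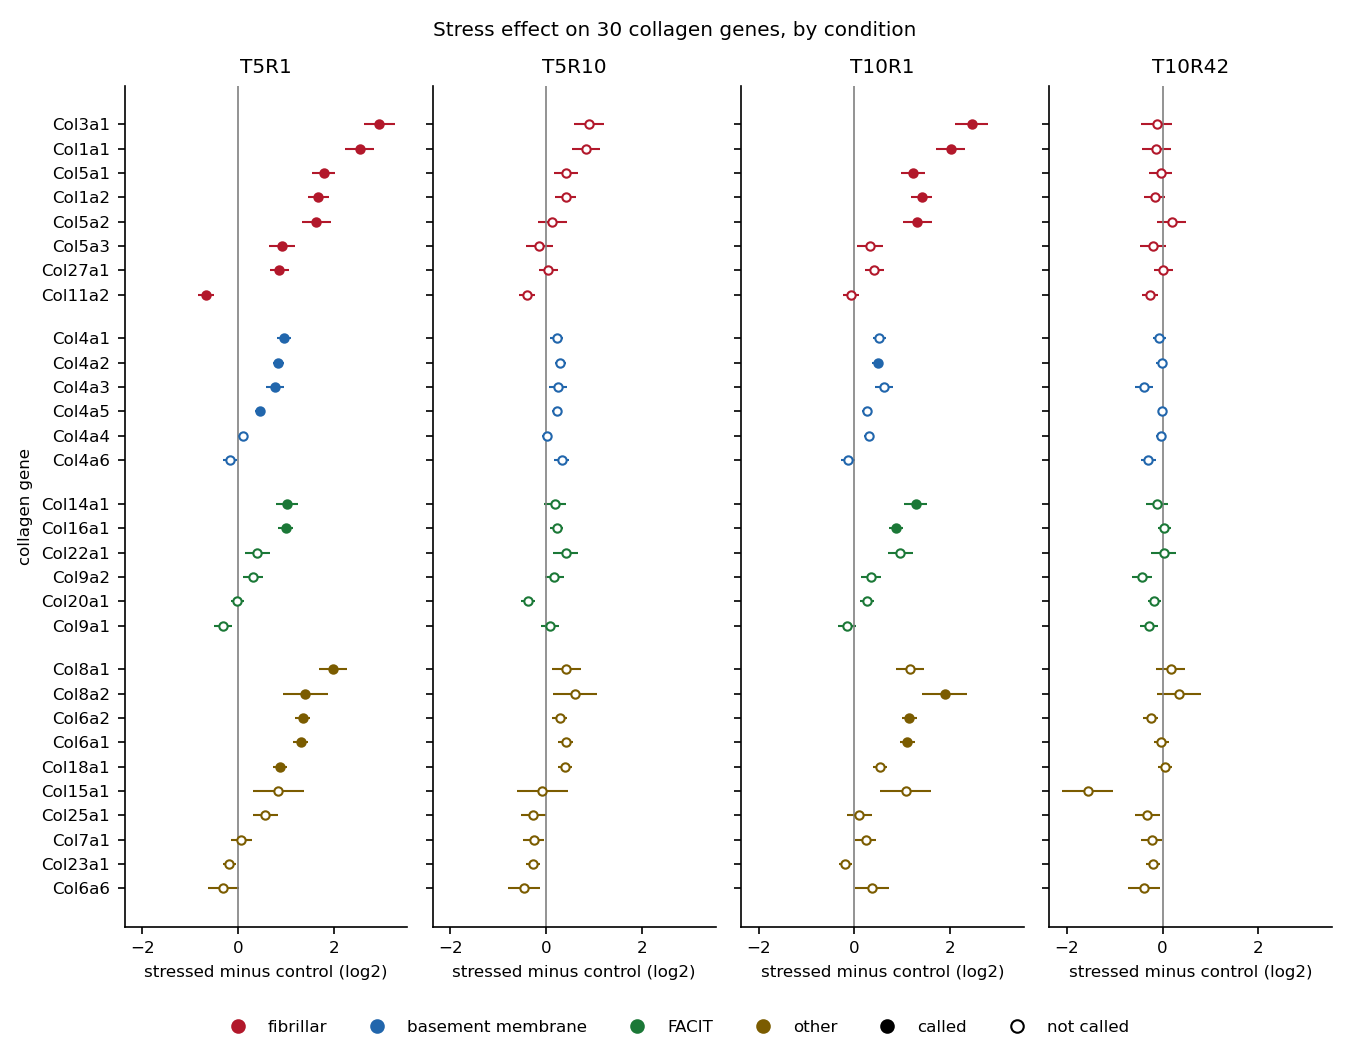
Stressed minus control on the log2 scale for the 30 tested collagen genes in each condition, with bars of 1 SE and filled points for called genes. Filled points stand at 1 day of rest only, with Col3a1 the farthest at 2.95 in T5R1 and 2.45 in T10R1.

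The stressed hearts differed among themselves. Among the 18 genes that rose in T5R1, replicate 1 was the highest stressed heart for 15, and its median above the control mean was 1.83, against 1.21 for replicate 2, 0.91 for replicate 3 and 1.14 for replicate 4. Of the 18, 17 had a value in all 4 stressed hearts, and Col16a1 was ranked without replicate 1. Without replicate 1 the count of called members was 17. Macrophage markers stood 1.11, 0.89, 0.37 and 0.30 above their control mean in replicates 1 to 4. The mean of 7 activated fibroblast markers above the control mean was 3.56, 2.18, 1.36 and 1.71 in the 4 stressed hearts. Red cell markers stood 1.06, 1.19, 3.79 and 0.99 above theirs, with replicate 3 the highest, and general fibroblast markers 0.48, 0.34, 0.10 and 0.41. The part of these cells in the order of the hearts was not tested.

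Other cell markers were measured in the same arrays. In T5R1, 6 of 7 activated fibroblast markers rose, among them Cthrc1 (5.43 ± 0.75), Postn (3.02 ± 0.42) and Ltbp2 (2.16 ± 0.34), and the summed level, relative to the array's 75th percentile, of the 4 with no missing value was 30.8 to 57.0 in stressed and 22.6 to 26.7 in control hearts. Of 7 macrophage markers 5 rose (summed level of the 6 with no missing value 34.8 to 55.2, against 29.2 to 33.9), and of 6 dividing cell markers 4 rose (5 with no missing value, 4.12 to 6.40, against 0.98 to 1.10). Of 7 tested general fibroblast markers 2 rose (6 with no missing value, 72.3 to 84.0, against 53.2 to 60.5), of 8 cardiomyocyte markers 2 fell (Myh6 -0.52 ± 0.15 and Tnni3 -0.32 ± 0.10, with a summed level of 2070 to 2865 over the 4 with no missing value, against 2828 to 2991), of 5 red cell markers 3 rose (3 with no missing value, 2.51 to 21.1, against 0.90 to 1.57), and of 6 Schwann cell markers 1 rose and 1 fell. Among 6 smooth muscle and pericyte markers Cspg4 rose (0.35 ± 0.11). None of 6 endothelial, 5 mesothelial, 4 skeletal muscle or 3 epidermal markers tested was called. Myh1 and Myh2, defining genes of fast skeletal muscle, were well above background on fewer than 3 of the 32 arrays. The skeletal muscle markers Acta1 and Mylpf were not tested either. The part of all these cell types in the collagen result was not tested. Dcn and Gsn, defining fibroblast genes, were well above background on all 32 arrays but were not tested, since background flags left 20 and 17 arrays without a value.

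Genes that make and sense collagen were read from 3 lists. Of 12 tested genes for propeptide removal and cross-linking 9 rose, among them Lox (2.21 ± 0.39) and Loxl2 (1.99 ± 0.21), lysyl oxidases that cross-link chains, and Adamts2 (1.36 ± 0.17), which trims the amino end. The list's median was 0.90. Of 19 genes for chain folding and modification 3 rose and P4ha3 fell, with Sparc (0.85 ± 0.13), a collagen-binding matrix protein, the most changed. Of 9 collagen receptors Itga11 (0.93 ± 0.25) and Itgb1 (0.41 ± 0.12) rose. In T5R10 and T10R42 none of these lists and none of the cell marker lists had a called gene. Lox stands in the activated fibroblast list and Pcolce2 in the fibroblast list as well.

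After 5 days of stress and 10 days of rest, no member was called, against 0.0191% of all genes. At an unadjusted p below 0.05, 7 members were higher, against 6.51% of all genes, and 2 lower, against 7.49%. The median change was 0.21 over the members and -0.02 over all genes, and measured changes were above 0 in 22 of 30, against 46.1% of all genes. Without the 3 arrays marked by the scanner software 1071 of all genes were called, and of the members 1 (Col20a1, lower), which was also the 1 called without T5R10 stressed replicate 2. The class medians were 0.27 for fibrillar, 0.24 for basement membrane, 0.18 for FACIT and 0.10 for other collagens.

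Col3a1 stood at 4.05, 3.82, 4.65 and 5.02 in stressed and 3.55, 3.79, 3.21 and 3.398 in control hearts, a difference of 0.90 ± 0.32 (adjusted p = 0.203). Col1a1 stood at 3.48, 3.16, 3.78 and 4.07, against 2.77, 2.93, 2.69 and 2.78, a difference of 0.83 ± 0.30. In both genes every stressed heart was above every control. Col1a2 stood at 5.74, 5.61, 6.15 and 6.18, against 5.44, 5.56, 5.49 and 5.57, and Col6a1 at 3.64, 3.38, 3.79 and 3.94, against 3.36, 3.38, 3.15 and 3.23. In these 4 genes, against 2.66% of all genes, the stressed hearts lay wholly above the controls, in Col6a1 by less than the rounding shown. In 1 member, Col23a1, they lay wholly below, against 3.24%. The other 8 genes given by array in T5R1 differed by 0.13 (Col5a2) to 0.42 (Col8a1).

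The stress effect was smaller after 10 days of rest than after 1 day for 9 members, by a test of the difference (T5R10 minus T5R1), against 1.27% of all genes in that direction. They were Col3a1 (-2.05 ± 0.45, adjusted p = 0.0145), Col1a1 (-1.71 ± 0.43), Col8a1 (-1.56 ± 0.42), Col5a1 (-1.38 ± 0.35), Col1a2 (-1.27 ± 0.31), Col6a2 (-1.07 ± 0.22), Col6a1 (-0.90 ± 0.22), Col16a1 (-0.78 ± 0.21) and Col4a1 (-0.74 ± 0.19). None of the 9 was called without the 3 arrays marked by the scanner software, where Col3a1 gave -1.63 (adjusted p = 0.0795), and 1 other member (Col27a1) was. The count was 2 without T5R1 control replicate 2 or 4, T5R10 stressed replicate 2 or T5R10 control replicate 2, and 3 without T5R1 stressed replicate 1, T5R1 control replicate 3 or T5R10 control replicate 1, and 5 without T5R1 stressed replicate 2. It was also 2 in a fit of these 16 arrays alone and 5 with no filter on dim probes.

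After 10 days of stress and 1 day of rest, 11 members rose and none fell, against 0.729% of all genes that rose and 0.336% that fell. All 11 were also among the 18 that rose in T5R1. Arrays of T10R1 were scanned on another day than those of the other conditions, so scan day and condition cannot be told apart in differences that involve T10R1. In 19 members the stressed hearts lay wholly above the controls, against 4.6% of all genes, and measured changes were above 0 in 26 of 30, against 50.1%. The median change was 0.53 over the members and 0.00 over all genes. By class it was 1.27 for fibrillar, 0.39 for basement membrane, 0.61 for FACIT and 0.80 for other collagens. In a fit of these 8 arrays alone no member was called (3 of all genes were); the changes are the same and only the error estimate differs.

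Col3a1 stood at 6.45, 4.89 and 6.44 in stressed replicates 1, 3 and 4, and 3.68, 3.32, 3.41 and 3.49 in controls. The spot of stressed replicate 2 was left out for a background flag and read 5.27. The change was 2.45 ± 0.34 (adjusted p = 0.000401), and 2.29 ± 0.32 with that spot kept. Col1a1 stood at 5.56, 4.72, 4.46 and 5.85, against 3.27, 3.07, 3.12 and 3.11 (change 2.01 ± 0.30). Col1a2 stood at 6.83, 6.22, 6.06 and 7.01, against 5.11, 5.13, 5.24 and 5.03 (change 1.40 ± 0.22). In Col1a1 and Col1a2 stressed replicates 1 and 4 lay above replicates 2 and 3.

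Col5a1 stood at 2.58, 1.84, 1.82 and 2.64 in stressed and 1.23, 0.98, 0.96 and 0.84 in control hearts (change 1.22 ± 0.25). Col5a2 stood at -0.25, -1.49, -1.26 and -0.34, against -2.30, -2.40, -1.997 and -1.89 (change 1.31 ± 0.31, adjusted p = 0.0339). Both genes lay apart between arms. Col6a1 stood at 4.67, 4.23, 4.16 and 4.85, against 3.43, 3.37, 3.43 and 3.25 (change 1.11 ± 0.16), and Col6a2 at 2.45, 2.00, 1.78 and 2.42, against 1.13, 1.04, 1.16 and 0.75 (change 1.14 ± 0.16). Col6a3, outside the rule, changed by 1.03 ± 0.22.

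Col4a2 stood at 3.97, 3.65, 3.74 and 3.68, against 3.41, 3.15, 3.28 and 3.25 (change 0.49 ± 0.11, adjusted p = 0.0323). Col4a1 stood at 3.72, 3.39, 3.41 and 3.33, against 2.93, 2.84, 3.05 and 2.94, and missed the threshold (0.52 ± 0.14, adjusted p = 0.0592). The hearts of both lay apart. Col16a1 stood at 2.58, 2.38 and 3.36 in stressed replicates 2, 3 and 4, with the spot of replicate 1 left out, and 1.95, 1.91, 1.87 and 1.89 in controls (change 0.87 ± 0.15). Col14a1 changed by 1.28 ± 0.24, with stressed replicate 2 left out, or by 1.20 ± 0.23 with its brighter probe. In the fit with that brighter probe Col12a1 gave 1.23 ± 0.41 and was not called (limma adjusted p = 0.165). Col8a2 changed by 1.88 ± 0.47. The second probe of Col8a2 differed by 0.33. Col8a2 lost its call in 13 of 23 alternatives, Col5a2 in 11, Col4a2 in 8 and Col16a1 and Col5a1 in 3 each. With the mean of its probes Col16a1 gave 0.47 (adjusted p = 0.518). Taken singly, its probes differed by 0.87, 1.20 and 0.62 in T10R1. The mean for stressed replicate 1 lacked the brightest probe, so the 0.47 does not show that the probes disagree.

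Col8a1 stood at 1.07, 0.05, 0.11 and 0.75 in stressed and -0.74, -0.77, -0.16 and -0.99 in control hearts and was not called (1.16 ± 0.30, adjusted p = 0.0542), though it was in 9 of 23 alternatives. Col18a1 stood at 1.67, 1.55, 1.87 and 1.21, against 1.04, 0.97, 1.15 and 1.01 (0.53 ± 0.15). Hearts lay apart in both. The count of called members was 7 without stressed replicate 1 or without stressed replicate 4. Of the 11 genes that rose, replicate 4 was the highest stressed heart for 6 and replicate 1 for 5, with medians above the control mean of 1.64, 0.86, 0.81 and 1.63 in replicates 1 to 4. Only 8 of the 11 had a value in all 4 stressed hearts, and the others were ranked over the hearts that had one. The activated fibroblast markers, of which 5 of 7 rose, stood at 2.18, 1.06, 0.83 and 2.21 above the control mean in the same hearts, and their part was not tested. The summed level of the 4 activated fibroblast markers with no missing value was 37.5 to 52.2 in stressed and 24.3 to 33.9 in control hearts.

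Among genes that make or sense collagen, 6 of 12 for propeptide removal and cross-linking rose in T10R1, among them Adamts2 (1.19 ± 0.17) and Loxl2 (1.14 ± 0.21). Of 19 for folding Sparc (0.76 ± 0.13) rose, and of 9 receptors Itga11 (1.04 ± 0.25). Of other marker lists, 3 of 7 fibroblast, 1 of 7 macrophage and 1 of 6 cartilage markers (Comp, 1.21 ± 0.22) rose. None of 8 cardiomyocyte, 6 endothelial, 6 smooth muscle and pericyte, 5 red cell or 6 dividing cell markers tested was called. Lox missed the threshold (1.20 ± 0.39, adjusted p = 0.158). The part of these cells in the collagen result was not tested.

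Between T10R1 and T5R1 no member was called for a difference of stress effects (limma, 0 called, against 0.55% of all genes). At an unadjusted p below 0.05 it was higher for 1 member, against 12.1% of all genes, and lower for 2, against 5.43%. Col3a1 differed by -0.50 ± 0.47 and Col1a1 by -0.53 ± 0.43, less than 2 SE from 0 in both. The conditions have different mice and controls.

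**Figure D2:**
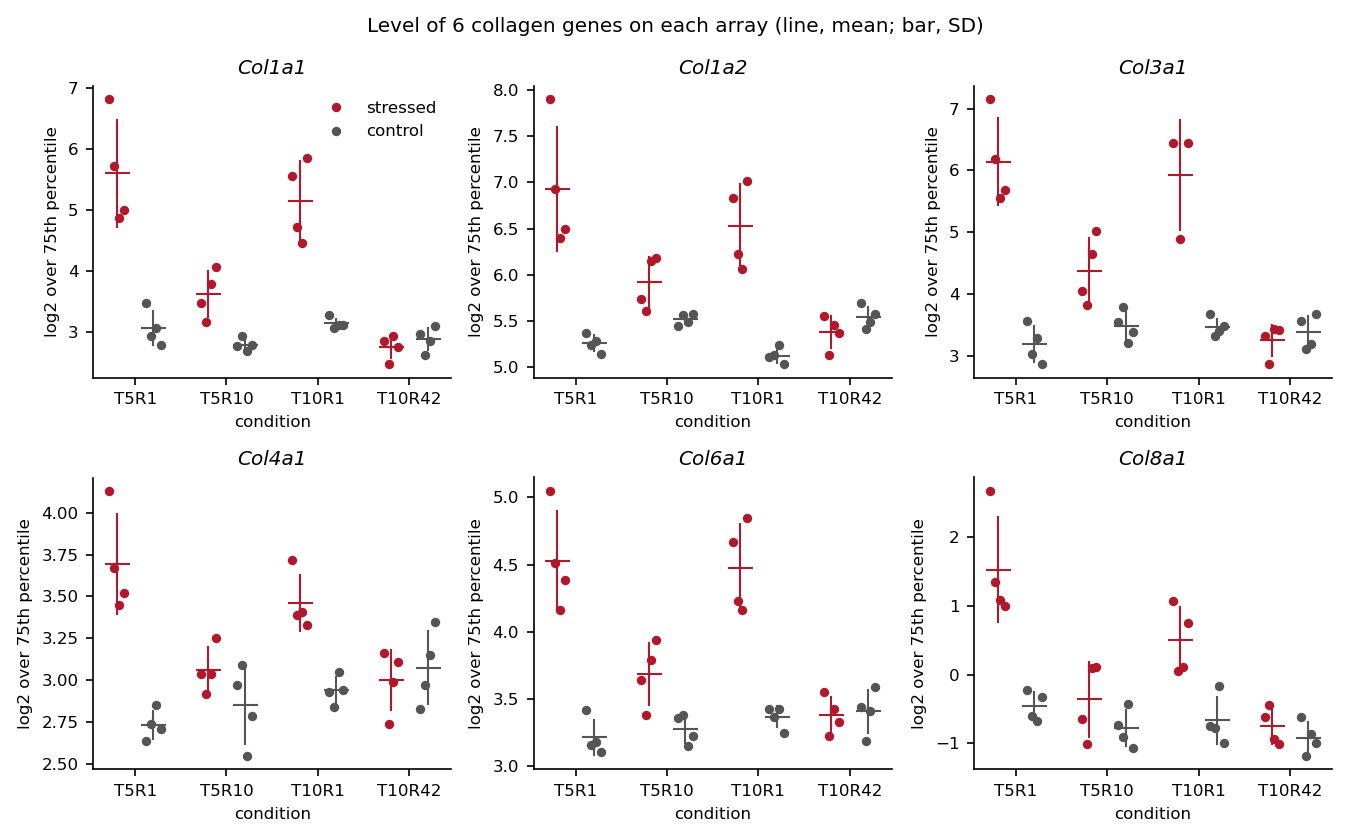
Level of 6 collagen genes (log2 over the 75th percentile of the array) on each array, stressed in red to the left of control in grey, with the mean as a line and the SD as a bar. In T5R1 and T10R1 the stressed hearts lie above the controls, and in T10R42 the arms overlap.

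After 10 days of stress and 42 days of rest, no member was called, against 0.897% of all genes. At an unadjusted p below 0.05 none was higher, against 7.12% of all genes, and 3 were lower, against 11.7%. Stressed hearts lay wholly below controls in 3 members, against 7.3% of all genes. The median change was -0.13 over the members and -0.03 over all genes, and measured changes were above 0 in 7 of 30, against 44.5% of all genes. The class medians were -0.13 for fibrillar, -0.06 for basement membrane, -0.15 for FACIT and -0.22 for other collagens.

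Col3a1 stood at 3.32, 2.87, 3.44 and 3.42 in stressed and 3.57, 3.11, 3.20 and 3.68 in control hearts (-0.13 ± 0.32). Col1a1 stood at 2.85, 2.47, 2.94 and 2.76, against 2.96, 2.63, 2.85 and 3.098 (-0.13 ± 0.30). Col1a2 stood at 5.55, 5.13, 5.46 and 5.37, against 5.69, 5.41, 5.49 and 5.58 (-0.17 ± 0.22). The arms overlapped in all 3 genes. The other 9 genes given by array in T5R1 differed by -0.25 (Col6a2) to 0.18 (Col5a2). Col15a1 differed by -1.57 ± 0.53, where stressed replicate 3 stood at -6.31, not well above background, and the other 3 stressed hearts at -2.34, -2.76 and -1.87. A second probe, well above background on all 8 arrays, differed by 0.34, so the Col15a1 value is uncertain.

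The stressed minus control change was lower after 42 days of rest than after 1 day for 10 members (T10R42 minus T10R1), against 2.17% of all genes in that direction. They were Col3a1 (-2.58 ± 0.47, adjusted p = 0.00833), Col1a1 (-2.14 ± 0.43), Col1a2 (-1.57 ± 0.31), Col14a1 (-1.40 ± 0.33), Col6a2 (-1.40 ± 0.22), Col5a1 (-1.26 ± 0.35), Col6a1 (-1.13 ± 0.22), Col4a3 (-1.003 ± 0.26), Col16a1 (-0.84 ± 0.21) and Col15a1. In T10R1 neither Col4a3 (0.62 ± 0.19, limma adjusted p = 0.117) nor Col15a1 (1.07 ± 0.53, limma adjusted p = 0.402) was called. In T10R42 they differed by -0.39 and -1.57, so the Col15a1 difference is not a return toward 0. Col4a3 was well above background on 2 of 4 T10R42 stressed arrays. Col15a1 gave -2.64 ± 0.76 with its brightest probe, and -1.64 (adjusted p = 0.0297) without T10R42 stressed replicate 3. It lost its call in 15 of 31 alternatives. With the brighter Col14a1 probe, in the fit that left out only spots flagged themselves, Col14a1 gave -0.97 ± 0.33 and was not called (adjusted p = 0.0843). The count was 5 without T10R1 stressed replicate 4, and 6 without T10R1 control replicate 2 or 4 or T10R42 control replicate 1 or 4. Of the 9 members called in T5R10 minus T5R1 and the 10 called here, 7 were shared. Among 12 genes for propeptide removal and cross-linking the effect was lower for 4 in T5R10 minus T5R1 and for 5 in T10R42 minus T10R1, and among 7 activated fibroblast markers for 1 and 4; their part in the collagen differences was not tested.

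**Figure D3:**
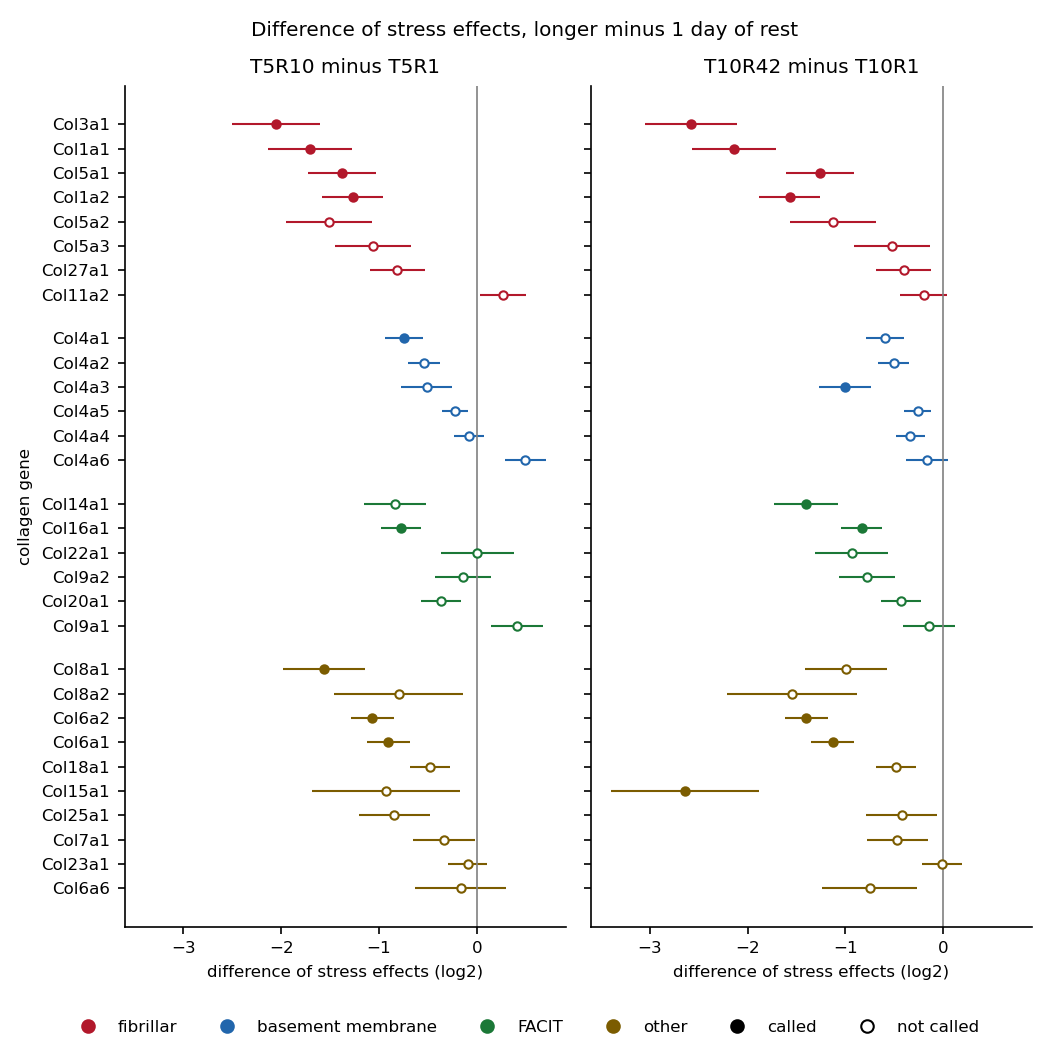
Difference of stress effects on the log2 scale, T5R10 minus T5R1 and T10R42 minus T10R1, for the 30 tested collagen genes, with bars of 1 SE and filled points for called genes. Filled points lie below 0 in both panels, with Col3a1 at -2.05 and -2.58.

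Class medians on each array show the spread between hearts. In T5R1 the fibrillar median above the control mean was 2.74, 1.56, 1.11 and 1.18 in stressed replicates 1 to 4. In T10R1 it was 1.64, 0.66, 0.85 and 1.72, and in T5R10 0.18, 0.04, 0.53 and 0.54. The basement membrane median was 0.62, 0.64, 0.34 and 0.57 in T5R1 stressed hearts and 0.40, 0.38, 0.40 and 0.30 in T10R1 stressed hearts. In both conditions the fibrillar medians spread over a wider range than the basement membrane medians. The FACIT median was 0.43, 0.14, 0.03 and 0.68 in T5R1 stressed hearts and 0.58, 0.11, 0.24 and 0.89 in T10R1 stressed hearts. That of other collagens was 1.36, 0.72, 0.72 and 0.59 in T5R1 and 0.96, 0.56, 0.67 and 1.06 in T10R1.

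**Figure D4:**
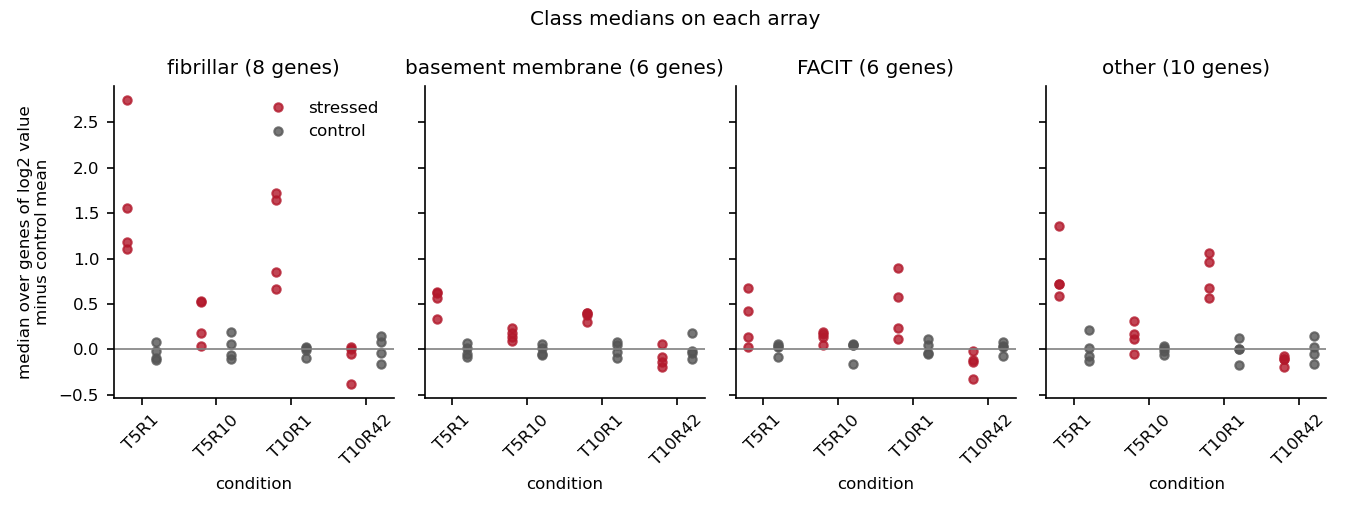
Median over the tested genes of a class of the log2 level minus the gene's control mean, for each array, stressed in red to the left of control in grey. Fibrillar medians reach 2.74 in T5R1 and 1.72 in T10R1, and in T10R42 stressed hearts the class medians run from -0.38 to 0.06.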

How the data were processed

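Spot brightness came from the deposited scanner output as intensity values. Background subtraction, spatial detrending and a surrogate for spots not above background were applied by Agilent Feature Extraction (version 10.7.3.1), per the file headers. The deposited output also carries other values, which are flags of 0 or 1 for spots above background, saturated or outlying. The authors' value table holds log2 values that track the log2 mean spot signal and are not centred by gene (column medians from 6.00 to 6.39). It served only as an alternative. Probe positions refer to mm9, as the array design gives them.

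Processed signal was taken as log2 minus each array's 75th percentile. Spots with a feature or background outlier flag were left out (80778 spot values over the arrays, 5470 of them with a feature flag), which left 7139 values missing among the tested genes. Spots of a probe were averaged. A probe had to be well above background on at least 3 of 4 arrays of a group and missing on at most 4 arrays, and the brightest probe stood for a gene. The arrays had 31266 to 43736 spots well above background, and no collagen value was saturated. limma 3.58.1 in R 4.3.3 fitted 8 group means over 32 arrays with 24 residual degrees of freedom, two-sided, with Benjamini-Hochberg adjustment over all genes at 0.05. Each array was a separate mouse, and their number limits the precision. The fit was tested on simulated data.

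The collagen members and the lists of other genes were chosen with earlier results of these data known. Values on every array are given for the 12 members with the smallest p in T5R1, and up to 4 called genes are named for each other list. Alternatives were other scalings, background corrections, filters, probe rules, outlier rules, blocks and weights, the authors' table, and leaving out arrays. Sequences come from RefSeq promoters of GRCm38.p6 and from the array's probes. Exon annotation and protein sequences were not used here.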

Additional observations from a re-analysis of the deposited data

Results flagged for a closer look

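In 238 sets of 4 arrays of a member, 11 had 1 array far from the other 3 by Dixon's test at its 95% critical value, and chance flags about 1 in 20 sets. The arrays, with their levels (log2 over the 75th percentile), were Col11a2 in T5R10 stressed replicate 3 (-3.72) and T10R42 stressed replicate 4 (-2.76), Col14a1 in T5R10 stressed replicate 3 (-1.40), and Col15a1 in T5R1 stressed replicate 1 (-0.59) and T5R10 control replicate 3 (-2.28). Col22a1 stood apart in T5R1 control replicate 3 (-3.73) and T5R10 stressed replicate 1 (-3.69), and Col27a1 in T10R42 control replicate 2 (-2.67). Col4a4 did so in T10R1 control replicate 4 (-0.10), and Col8a2 in T10R1 control replicate 4 (-3.39) and T10R42 stressed replicate 3 (-1.60).

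The stress effect differed between conditions, by the limma test of the difference, for these members. T5R10 minus T5R1 was -0.78 for Col16a1, -0.74 for Col4a1, -1.71 for Col1a1, -1.27 for Col1a2, -2.05 for Col3a1, -1.38 for Col5a1, -0.90 for Col6a1, -1.07 for Col6a2 and -1.56 for Col8a1. T10R42 minus T10R1 was -1.40 for Col14a1, -0.84 for Col16a1, -1.003 for Col4a3, -2.14 for Col1a1, -1.57 for Col1a2, -2.58 for Col3a1, -1.26 for Col5a1, -2.64 for Col15a1, -1.13 for Col6a1 and -1.40 for Col6a2.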

How the results depend on the processing

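Counts of called collagens moved by over 1.5 times under these alternatives. With only the arrays of the condition, T10R1 gave 0 of 11 and T5R10 minus T5R1 gave 2 of 9. With no filter on dim probes, T5R10 minus T5R1 gave 5. Without the arrays marked by the scanner software, T5R10 gave 1, in place of 0, and T5R10 minus T5R1 gave 1; over all genes T5R10 gave 1071 calls, against 5. With array weights T10R42 gave 1 (Col15a1, lower) and T10R1 minus T5R1 gave 1 (Col11a2, higher), each in place of 0. The cause was not tested. Leaving out 1 array at a time gave 17 to 19 called members in T5R1, 0 to 1 in T5R10, 7 to 12 in T10R1, 0 in T10R42, 2 to 12 in T5R10 minus T5R1, 5 to 10 in T10R42 minus T10R1 and 0 in T10R1 minus T5R1. No called member changed sign under any alternative run.

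Replicate numbers were not used as pairs in the main fit (same-number correlations -0.26 to 0.22, 7 of 16 highest with their own number). Equal numbers lay in the same slide row in both arms, so these correlations cannot tell a pairing of mice from slide row. With the replicate block the counts were 17 in T5R1, 0 in T5R10, 8 in T10R1, 0 in T10R42, 6 in T5R10 minus T5R1, 9 in T10R42 minus T10R1 and 0 in T10R1 minus T5R1. Leaving out only spots with a feature flag was chosen after seeing the data and gave 20 called in T5R1 and 11 in T10R1. Scaling moved the T5R1 median of all genes between -0.14 and -0.02. The share of higher calls among all genes in T5R1 was 39% as reported, 60.3% with quantile normalization, 51% with the percentile over detected probes and 61.6% in the authors' table. In T10R1 it was 68.5% as reported and 82.5% with the percentile over detected probes, and in T10R42 33.2% as reported, 49.4% with quantile normalization and 11.7% with the percentile over detected probes. The called collagens in T5R1 numbered 19, 16, 19 and 19 with quantile normalization, normexp, the detected percentile and the authors' table, and 9, 12, 14 and 13 in T10R1. Dim probes and 4 mice per group limit the precision.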
